A study of Mus musculus with 6 samples.

Results

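Enzymes that make, reduce and salvage nucleotides were mostly higher in mouse myoblasts grown on fibronectin than in those grown on collagen I. The set comprised 33 named enzymes of de novo purine synthesis, de novo pyrimidine synthesis, deoxynucleotide synthesis and salvage, and 32 of them had at least 1 probe set assigned to a single gene, out of 18194 genes on the array with such a probe set. Impdh2 was the enzyme without one and is not analysed here. All 32 passed the filter on dim signals and were among the 10941 genes tested. Of these 32 enzymes 22 rose on fibronectin, 1 fell and 9 did not pass the test, whereas of all genes tested 40.1% were called, 19.9% as higher and 20.2% as lower (limma, Benjamini-Hochberg adjusted p under 0.05). The median log2 change of the enzymes was 0.24, against 0.00 over all genes tested, and single changes lay between -0.19 and 0.54. These were small changes, since 0 of the 32 passed the test with a change of 1.5-fold or more, a mark that 1.55% of all genes reached upwards and 3.67% downwards.

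The cells were myoblasts, the dividing precursors of skeletal muscle fibres, isolated from the hindlimbs of C57BL/6JRj mice, all male and 9 to 15 weeks old. The 3 collagen samples and the 3 fibronectin samples differed in the coating of the dish, collagen I or fibronectin, and both spent 72 hours in the same growth medium, Ham's F-10 containing 20% serum, 2.5 ng/ml basic fibroblast growth factor and 1% antibiotics. The comparison asked how the matrix under the cells changes their gene expression. Separate cultures or animals are not named in the labels, so each p-value rests on the spread of these 6 arrays, possibly a technical one, and their number limits the precision.

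Purines are assembled stepwise on an activated ribose, PRPP, up to inosine monophosphate, which is then turned into AMP or GMP. Pyrimidines are built as a free ring that is joined to PRPP afterwards, giving UMP and from it CTP. Ribonucleotide reductase converts ribonucleotides into the deoxynucleotides used for DNA, thymidylate is made by methylation, and salvage kinases and phosphoribosyltransferases recover nucleosides and bases. Dividing cells need both routes, and several of these enzymes are known to peak in S phase.

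The myoblast label was checked against 8 markers, of which 7 were above the filter and Msc below it. The lineage factors Myod1, Myf5 and Pax7 had mean log2 signals between 8.41 and 10.10 on either coating and did not pass the test, while Cdh15 rose by 0.24 and Des and Chrna1 fell by 0.23 and 0.31. Endothelial markers (6 of 6) and adipocyte markers (3 of 3) were below the filter, as were 6 of 8 fibroblast markers, 4 of 7 macrophage markers and 3 of 5 markers of smooth muscle and pericytes. Bright or changed markers of these other cells were Col3a1, Rgs5, Cd68, Cd14 and Thy1. Col3a1 rose from 9.33 to 9.54, and Rgs5 fell from 9.07 to 7.84. Cd68 and Cd14 fell by 1.28 and 0.46, and Thy1, a dim fibroblast marker, fell by 0.32 (adjusted p = 0.0399). The Schwann cell marker Sox10 lay above the filter at a mean of 3.17 and did not pass. The part of such cells in the enzyme changes was not tested. Of 14 markers of dividing cells 9 rose and 0 fell, or 64.3% called against 40.1% of all genes tested. The median log2 change of these markers was 0.26. Their mean signal over the list was 8.38 to 8.44 in the collagen samples and 8.68 to 8.71 in the fibronectin samples. They included the cyclins Ccne2 and Ccna2, which rose 1.45-fold and 1.40-fold, and the origin licensing factor Cdc6, which rose 1.37-fold. The 5 that did not pass were Pcna, Mcm2, Mcm3, Mcm4 and Mcm6, with log2 changes from 0.03 to 0.21. Mcm5 and Mcm7 rose by 0.27 and 0.16. Of 8 markers of differentiating myocytes above the filter 8 fell, where 20.2% of all genes tested were called lower. Among these markers were the troponins Tnni1 and Tnnt2 and the actin Acta1, with log2 changes of -1.56, -0.80 and -1.53. The list's mean signal was 5.02 to 5.10 on collagen and 3.92 to 4.23 on fibronectin. In RNA from a whole culture a different share of dividing or differentiating cells and a different RNA level per cell cannot be told apart, and the part of either in the enzyme changes was not tested.

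The samples separated by coating across most of the enzymes. Of the 32 enzymes 26 had all 3 fibronectin samples above all 3 collagen samples, 1 had them all below, and 5 overlapped, where 27.4% of all genes tested lay wholly above and 25.9% wholly below. Expressed as the median over the 32 enzymes of the log2 signal relative to each enzyme's own mean, the collagen samples stood at -0.12, -0.14 and -0.08 and the fibronectin samples at 0.13, 0.11 and 0.09. Every sample was thus nearer to its own coating than to the other. Rescaling each sample to its median raised the count to 26 higher and 0 lower enzymes, and raised the share of all genes called higher from 19.9% to 27.2%, with 15% called lower.

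**Figure D1:**
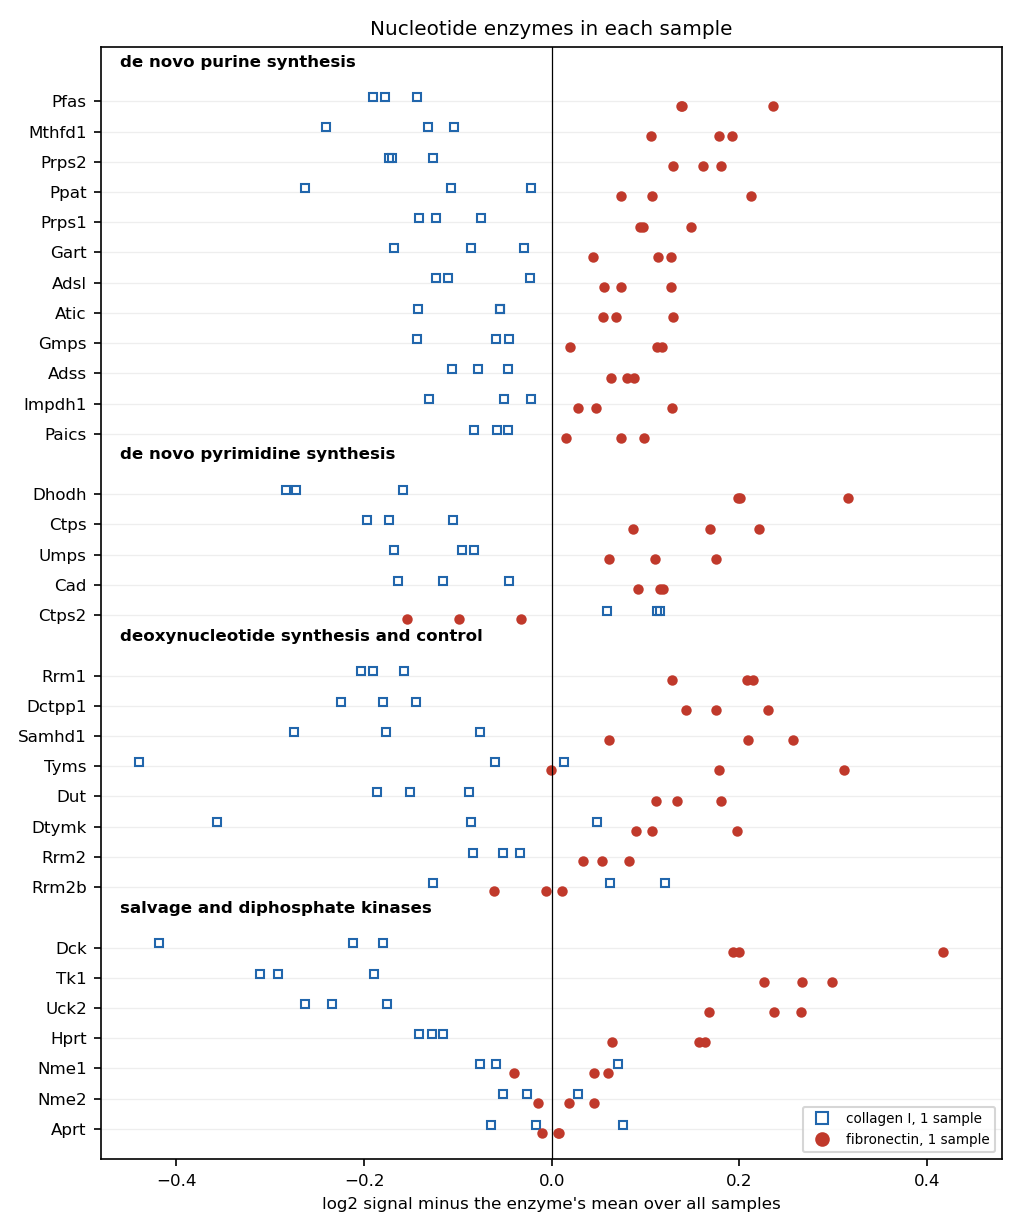
Each point is 1 sample: its log2 signal minus the mean of that enzyme over all 6 samples (x axis, log2 units), with enzymes in rows ordered by change within their role. Fibronectin samples (filled circles) lie to the right of all collagen samples (open squares) for 26 of 32 enzymes, and to the left for Ctps2.

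Of the 12 enzymes of de novo purine synthesis measured 10 rose, 0 fell and 2 did not pass. That is 83.3% called, against 40.1% of all genes tested, and 6 of the 10 calls were lost in some settings. All 12 had fibronectin samples above the collagen samples without overlap, as had 27.4% of all genes tested. The median log2 change was 0.18, and the range ran from 0.13 to 0.34. PRPP synthetases supply the activated ribose. Prps1 had log2 signals of 7.82, 7.77 and 7.75 on collagen and 7.99, 7.99 and 8.04 on fibronectin, and Prps2 had 8.13, 8.09 and 8.09 against 8.39, 8.42 and 8.44. Both synthetases were higher in each fibronectin sample, with log2 changes of 0.23 (SE 0.04, adjusted p = 0.005) and 0.31 (SE 0.04, adjusted p = 0.000969).

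Pfas, which catalyses the amidation step in the middle of the route, rose 1.27-fold, from 7.50, 7.49 and 7.53 on collagen to 7.91, 7.82 and 7.82 on fibronectin (SE 0.05 on the log2 scale, adjusted p = 0.00105). By the brightest probe sets this was the largest change of the purine enzymes. With probe sets averaged, however, Mthfd1 had 0.40 against 0.34 for Pfas. Ppat had 0.36 without probe sets whose names end in _s_at or _x_at, which can match other transcripts or genes. That setting was added after the values were seen. Mthfd1, a trifunctional enzyme that makes the formyl folate used in the route, rose 1.25-fold, from 8.31, 8.18 and 8.28 to 8.61, 8.59 and 8.52 (SE 0.05, adjusted p = 0.00257). Its other 2 probe sets above the filter rose as well, by 0.53 and 0.37 on the log2 scale.

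The other 6 calls of the route were less secure. Ppat, the committed step, rose by 0.26 on the log2 scale, from 5.32 ± 0.12 to 5.59 ± 0.07 (SD, n = 3, adjusted p = 0.0208), and Gart, a trifunctional enzyme, by 0.19 (adjusted p = 0.0223). Adsl, Atic, Gmps and Adss, which act at the last steps to inosine monophosphate and in the branches to GMP and AMP, rose by 0.17, 0.17, 0.17 and 0.15, with adjusted p between 0.0208 and 0.0328. Paics and Impdh1, with 0.13 and 0.14 on the log2 scale, missed the threshold at adjusted p = 0.054 and adjusted p = 0.0672. Paics acts in the second part of the ring assembly, and Impdh1 commits inosine monophosphate to GMP.

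All 6 of the weaker calls were lost in some settings while their direction stayed. Without collagen replicate 2 Ppat, Gart, Adsl, Gmps and Adss had log2 changes of 0.20, 0.15, 0.15, 0.14 and 0.14, all short of the threshold. Without fibronectin replicate 1 the 6 genes had changes between 0.15 and 0.22 and none passed. Atic and Adsl were also lost without collagen replicate 1 (0.14 and 0.16), Gmps and Adss without fibronectin replicate 2 (0.15 and 0.16), and Gart, Adsl, Atic and Adss without fibronectin replicate 3 (0.18, 0.15, 0.18 and 0.15). Testing all genes without the filter, which lowers the power by adding dim genes, left these 6 changes as they were, with adjusted p between 0.0584 and 0.0921. Atic fell short too with its probe sets averaged (0.12), and Gmps when every probe set was tested (adjusted p = 0.0508). Paics went the other way and passed in 6 settings, among them with its probe sets averaged, at 0.15 (adjusted p = 0.0241).

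Ppat and Paics are neighbours whose first stretches overlap on opposite strands in RefSeq, so their start regions are shown together. The RefSeq windows of GRCm38.p6 run from 250 bases before a transcript start to 50 after it, at chr5:76951529-76951828 on the minus strand for Ppat and chr5:76951052-76951351 on the plus strand for Paics. Capitals mark matches, on either strand, to the words TTTCCCGC, TTTCGCGC, TTTGGCGC and TTTGCCGC of the E2F site, CACGTG of the E-box and CCAAT of the CCAAT box.
Ppat: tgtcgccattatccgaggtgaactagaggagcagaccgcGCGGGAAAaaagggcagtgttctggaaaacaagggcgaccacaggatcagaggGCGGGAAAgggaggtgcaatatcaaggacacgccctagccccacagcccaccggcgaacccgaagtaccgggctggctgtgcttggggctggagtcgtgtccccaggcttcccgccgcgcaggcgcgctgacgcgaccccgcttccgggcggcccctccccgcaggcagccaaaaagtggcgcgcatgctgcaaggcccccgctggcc
Paics: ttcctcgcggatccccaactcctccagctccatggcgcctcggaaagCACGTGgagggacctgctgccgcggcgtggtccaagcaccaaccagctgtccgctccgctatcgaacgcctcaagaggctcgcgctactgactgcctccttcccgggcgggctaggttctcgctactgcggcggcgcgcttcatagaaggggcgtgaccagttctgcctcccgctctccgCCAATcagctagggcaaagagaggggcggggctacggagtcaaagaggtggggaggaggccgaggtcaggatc
The Ppat window held 2 E2F words, beginning 211 and 158 bases before the start, and the Paics window an E-box 203 bases and a CCAAT box 23 bases before it. Ppat rose by 0.26 and Paics had 0.13 on the log2 scale, with 3 of 3 fibronectin samples above the collagen samples for each.

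Among the 29 enzymes with such a window (Pfas, Dhodh and Rrm2b are the others) matches were sparse. The E2F words were found for 2 enzymes, Ppat and Prps2, or 6.9%, against 2.6% of all 27025 genes with a window. Those genes were not limited to the ones on the array or tested here. The E-box was found for 5, or 17.2%, against 8.09%, and the CCAAT box for 11, or 37.9%, against 41.1%. The E-box genes were Atic, Dtymk, Tyms, Paics and Nme1. Of the 29 enzymes 21 passed the expression test, among them 2 of 2 with an E2F word, 1 of 5 with an E-box and 8 of 11 with a CCAAT box, numbers too small to compare. A match is a description of the letters and not of binding, and a window without one says only that these words are not in it. Genes with several starts were counted if any of their windows held a word.

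**Figure D2:**
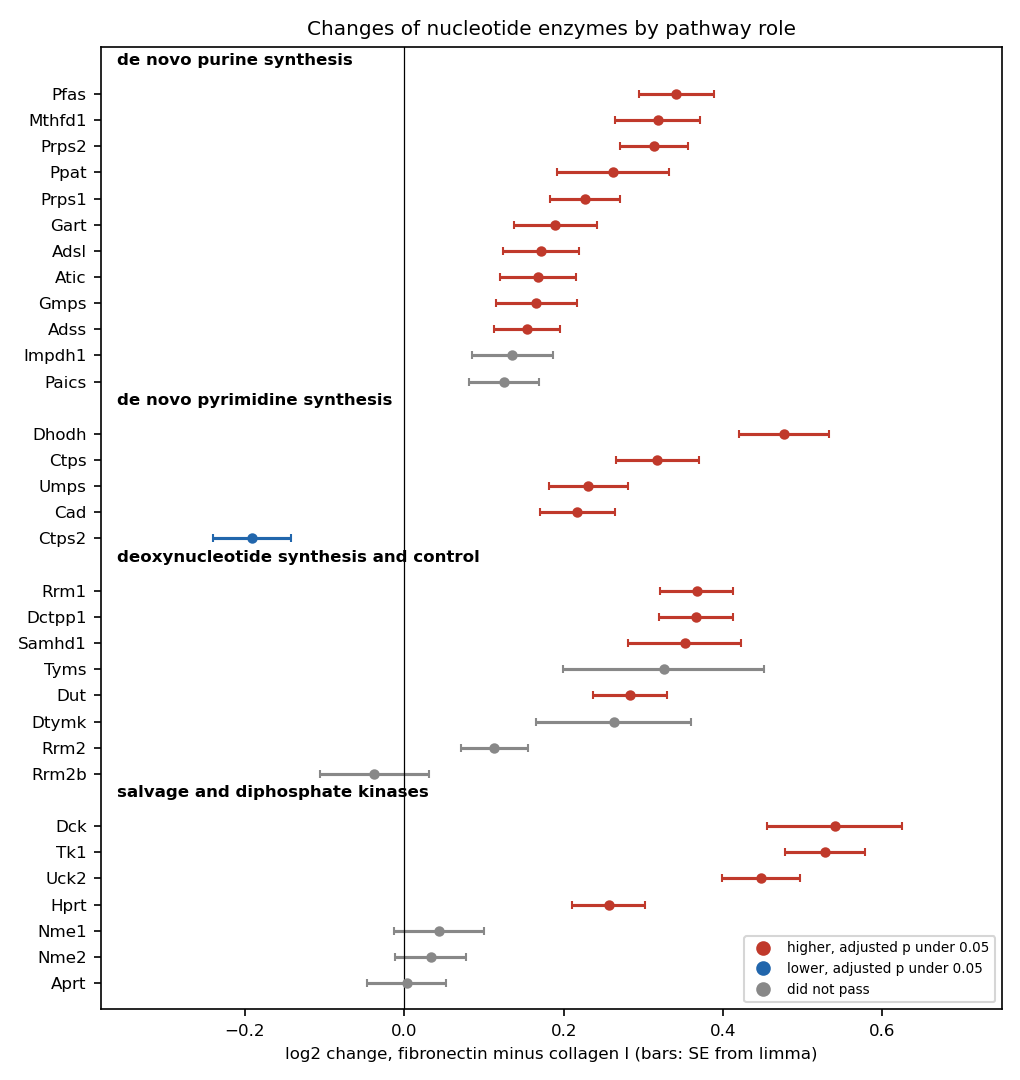
Log2 change of each enzyme, fibronectin minus collagen I (x axis, points, n = 3 samples per coating), with the SE from limma as bars and enzymes grouped by role in rows. Red points rose, the blue point (Ctps2) fell and grey points did not pass an adjusted p of 0.05; changes run from -0.19 to 0.54.

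De novo pyrimidine synthesis had 4 of 5 enzymes higher and 1 lower, so that 100% were called against 40.1% of all genes tested. Cad, which carries the first 3 activities of the route in 1 protein, rose 1.16-fold, from 7.56, 7.51 and 7.63 on collagen to 7.77, 7.79 and 7.79 on fibronectin (SE 0.05 on the log2 scale, adjusted p = 0.00814). Umps, which joins the ring to PRPP and forms UMP, rose 1.17-fold, from 7.47, 7.38 and 7.46 to 7.73, 7.66 and 7.61 (adjusted p = 0.00817). In both the lowest fibronectin sample lay above the highest collagen sample.

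Dhodh, the enzyme of the inner mitochondrial membrane that oxidises dihydroorotate, had the largest change of this route by its brightest probe set. Its log2 signals were 5.50, 5.49 and 5.62 on collagen and 6.09, 5.98 and 5.98 on fibronectin, a rise of 0.48 (SE 0.06) at adjusted p = 0.000526. A second probe set was almost equally bright, with a mean of 5.78 for each, with a change of 0.13 (SE 0.07, adjusted p = 0.191 over all probe sets). The first is of a type, named with the ending _s_at, that matches more than 1 transcript or gene, so the size of the Dhodh change depends on which probe set is read. Without probe sets of that type or of the type _x_at, which can bind related sequences, the Dhodh call was lost at 0.13 (adjusted p = 0.156). That choice was made after the values were seen.

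The CTP synthetases moved in opposite directions. Ctps, which makes CTP from UTP in proliferating cells, rose 1.25-fold, from 8.36, 8.38 and 8.45 to 8.77, 8.72 and 8.64 (SE 0.05, adjusted p = 0.0024). Ctps2, its paralogue, had 7.21, 7.21 and 7.15 on collagen and 6.94, 7.00 and 7.06 on fibronectin, which is a change of -0.19 on the log2 scale (SE 0.05, adjusted p = 0.0164). Neither gene's samples overlapped between coatings, and a second Ctps2 probe set close to the filter had -0.18 and did not pass. The difference within each sample, Ctps minus Ctps2, averaged 1.20 ± 0.08 on collagen and 1.71 ± 0.13 on fibronectin (SD, n = 3), so that it widened by 0.51 (SE 0.09). An exact two-sided permutation test over the samples gave p = 0.1, the smallest value that 3 against 3 samples allow, and 0.2 after adjustment over the 4 paralogue pairs compared. The Ctps2 call was lost without collagen replicate 2 (-0.18), without fibronectin replicate 1 (-0.16) and without fibronectin replicate 2 (-0.19). It was lost as well with samples centred (-0.14), with probe sets averaged (-0.12) and without the filter (adjusted p = 0.0546), with the same direction throughout.

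The start windows of both CTP synthetases are shown because these were the paralogues with calls in opposite directions. They lie at chr4:120570227-120570526 on the minus strand for Ctps and at chrX:162901921-162902220 on the plus strand for Ctps2, with the same words in capitals.
Ctps: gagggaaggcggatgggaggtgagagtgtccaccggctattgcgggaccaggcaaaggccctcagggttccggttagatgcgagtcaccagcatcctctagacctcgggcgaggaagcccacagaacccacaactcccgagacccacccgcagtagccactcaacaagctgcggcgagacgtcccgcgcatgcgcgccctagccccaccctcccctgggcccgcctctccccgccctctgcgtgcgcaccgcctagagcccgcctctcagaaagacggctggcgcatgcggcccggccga
Ctps2: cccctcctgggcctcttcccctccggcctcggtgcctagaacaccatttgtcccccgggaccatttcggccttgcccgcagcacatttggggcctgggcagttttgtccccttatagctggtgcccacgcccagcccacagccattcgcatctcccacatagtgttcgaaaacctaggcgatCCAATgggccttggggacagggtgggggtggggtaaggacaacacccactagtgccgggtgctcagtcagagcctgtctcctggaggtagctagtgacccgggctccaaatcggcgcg
The Ctps2 window held a CCAAT box 68 bases before the start, and the Ctps window held none of the words, as did the other windows that RefSeq lists for either gene.

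Of the 8 enzymes of deoxynucleotide synthesis and control 4 rose, 0 fell and 4 did not pass, with a median log2 change of 0.30. That is 50% called, not far from the 40.1% of all genes tested, of which 19.9% were called higher and 20.2% lower. Ribonucleotide reductase consists of the large subunit Rrm1 and a small subunit, Rrm2 in cycling cells or Rrm2b in resting and damaged ones. Rrm1 had 8.34, 8.33 and 8.38 on collagen and 8.66, 8.75 and 8.74 on fibronectin, a rise of 1.29-fold (SE 0.05 on the log2 scale, adjusted p = 0.000645), and its other bright probe set rose by 0.48. Rrm2 had 10.57, 10.61 and 10.62 on collagen and 10.71, 10.69 and 10.74 on fibronectin. The Rrm2 samples did not overlap, yet the log2 change of 0.11 did not pass (SE 0.04, adjusted p = 0.0662).

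The Rrm2 value also depended on the probe set. The brightest one is of the _x_at type, and the other 2, with means of 9.31 and 9.29, rose by 0.22 and 0.18 (adjusted p = 0.0347 and 0.0375 over all probe sets). Rrm2 passed in 5 settings in all, among them with probe sets averaged (0.17, adjusted p = 0.0163). Rrm2b had 5.02, 4.96 and 4.77 on collagen and 4.89, 4.91 and 4.84 on fibronectin, which is a change of -0.04 on the log2 scale (SE 0.07, adjusted p = 0.69), with samples of both coatings intermixed. Its sign turned to 0.02 with samples centred and to 0.01 without collagen replicate 1. The difference Rrm2 minus Rrm2b changed by 0.15 (SE 0.10, exact two-sided permutation p = 0.3, 0.4 after adjustment).

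The other 3 calls were Dctpp1, Dut and Samhd1, which hydrolyse deoxynucleotides. Dctpp1, a pyrophosphatase of dCTP and modified cytosine nucleotides, rose 1.29-fold, from 7.50, 7.45 and 7.53 to 7.91, 7.82 and 7.85 (adjusted p = 0.000743). Dut, which removes dUTP and yields the precursor of thymidylate, rose 1.22-fold, from 7.50, 7.60 and 7.54 to 7.80, 7.82 and 7.87 (adjusted p = 0.00245). Samhd1, which degrades deoxynucleotides and so limits the pool, rose 1.28-fold by its brightest probe set, from 5.92, 6.02 and 6.12 to 6.45, 6.41 and 6.26 (adjusted p = 0.0061). For each of these genes the coatings did not overlap. Other Samhd1 probe sets above the filter changed by 0.17 and 0.00 on the log2 scale without passing, and with all its probe sets averaged Samhd1 had 0.06 (adjusted p = 0.475).

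The thymidylate enzymes had positive changes with wide spread. Tyms, thymidylate synthase, was dim here, at 3.95 ± 0.24 on collagen and 4.27 ± 0.16 on fibronectin, or 0.33 higher (SE 0.13, adjusted p = 0.0735), and its samples overlapped. Dtymk, which phosphorylates thymidylate, had 8.26 ± 0.21 and 8.52 ± 0.06 and a change of 0.26 (SE 0.10, adjusted p = 0.0635). Collagen replicate 1 had the lowest signal of both, 3.67 for Tyms and 8.03 for Dtymk. Without that sample the changes were 0.19 for Tyms and 0.15 for Dtymk and neither passed, whereas without collagen replicate 3 both passed, at 0.41 and 0.35. Dtymk passed in 7 of 16 settings, including with probe sets averaged (0.20, adjusted p = 0.00955), and 1 of its 3 probe sets passed, at 0.15.

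Rrm1 and Dctpp1 rose by 0.37 each, and both start windows hold a pair of CCAAT boxes, which is why they are shown. Within each pair the boxes point the same way, reading CCAAT in Rrm1 and ATTGG, the opposite orientation, in Dctpp1. The windows lie at chr7:102441445-102441744 on the plus strand and chr7:127260618-127260917 on the minus strand.
Rrm1: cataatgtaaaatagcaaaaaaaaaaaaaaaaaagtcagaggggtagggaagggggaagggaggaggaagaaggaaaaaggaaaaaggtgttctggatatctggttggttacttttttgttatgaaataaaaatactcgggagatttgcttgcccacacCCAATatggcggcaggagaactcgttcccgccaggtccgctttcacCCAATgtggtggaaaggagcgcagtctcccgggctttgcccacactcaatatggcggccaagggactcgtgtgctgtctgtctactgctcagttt
Dctpp1: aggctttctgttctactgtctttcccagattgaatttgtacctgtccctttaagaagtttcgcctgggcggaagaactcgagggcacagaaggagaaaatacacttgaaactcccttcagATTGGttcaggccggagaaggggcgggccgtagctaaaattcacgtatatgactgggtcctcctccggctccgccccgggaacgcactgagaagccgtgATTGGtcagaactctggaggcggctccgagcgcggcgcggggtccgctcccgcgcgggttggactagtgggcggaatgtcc
In the Rrm1 window the boxes begin 91 and 45 bases before the start, and in the Dctpp1 window 130 and 31 bases before it. The CCAAT word was no more common among the enzymes than among all genes, as given above.

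Salvage divided into kinases of nucleosides, which rose more than most of the set, and other enzymes, several with changes near 0. Dck and Tk1 had the largest changes of all 32 enzymes. Tk1, the cytosolic thymidine kinase of S phase, rose 1.44-fold, from 7.37, 7.35 and 7.47 on collagen to 7.96, 7.93 and 7.88 on fibronectin (SE 0.05 on the log2 scale, adjusted p = 0.000199). Dck, the deoxycytidine kinase, rose 1.45-fold, from 5.95, 6.19 and 6.16 to 6.57, 6.57 and 6.79 (SE 0.08, adjusted p = 0.00194). Uck2, the uridine and cytidine kinase, rose 1.36-fold, from 6.76, 6.68 and 6.71 to 7.21, 7.18 and 7.11 (SE 0.05, adjusted p = 0.00036). All 3 kinases were higher in each fibronectin sample and passed in all 16 alternative settings. The 3 probe sets of Dck rose by 0.50 to 0.59, and the 5 of Uck2 above the filter by 0.33 to 0.56.

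The purine phosphoribosyltransferases differed in their calls. Hprt, which salvages hypoxanthine and guanine, rose 1.19-fold, from 8.97, 8.96 and 8.99 to 9.26, 9.26 and 9.17 (SE 0.05, adjusted p = 0.00354). Aprt, which salvages adenine, lay between 9.94 and 10.08 in all 6 samples, with overlapping coatings and a change of 0.00 (SE 0.05, adjusted p = 0.967). Whether the changes of Hprt and Aprt differ was not tested.

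The diphosphate kinases Nme1 and Nme2, which balance nucleoside triphosphates, were the brightest of the set together with Rrm2. Nme1 had 10.46, 10.31 and 10.33 on collagen and 10.45, 10.43 and 10.35 on fibronectin, and Nme2 had 11.85, 11.80 and 11.78 against 11.85, 11.81 and 11.87. Samples of both coatings overlapped for each, and the log2 changes were 0.04 (SE 0.06, adjusted p = 0.568) and 0.03 (SE 0.04, adjusted p = 0.585). A second Nme1 probe set had -0.08, which made Nme1 the enzyme whose probe sets above the filter differed in sign, and neither passed. The genes are close in sequence, so their probe sets may share signal. The change of Nme1 minus Nme2 was 0.01 (SE 0.05, exact two-sided permutation p = 0.9, also after adjustment). The change of Prps1 minus Prps2 was -0.09 (SE 0.01), without overlap and with an exact permutation p of 0.1 (0.2 after adjustment).

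Across the 80 probe sets of the 32 enzymes 64 lay above the filter, and with all probe sets of the array tested 42 of these rose and 1 fell. Of all 22496 probe sets tested in that setting 16.2% were called higher and 15.8% lower. The 42 include several probe sets of the same gene. Of the 20 enzymes with several probe sets above the filter 0 had calls in both directions.

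**Figure D3:**
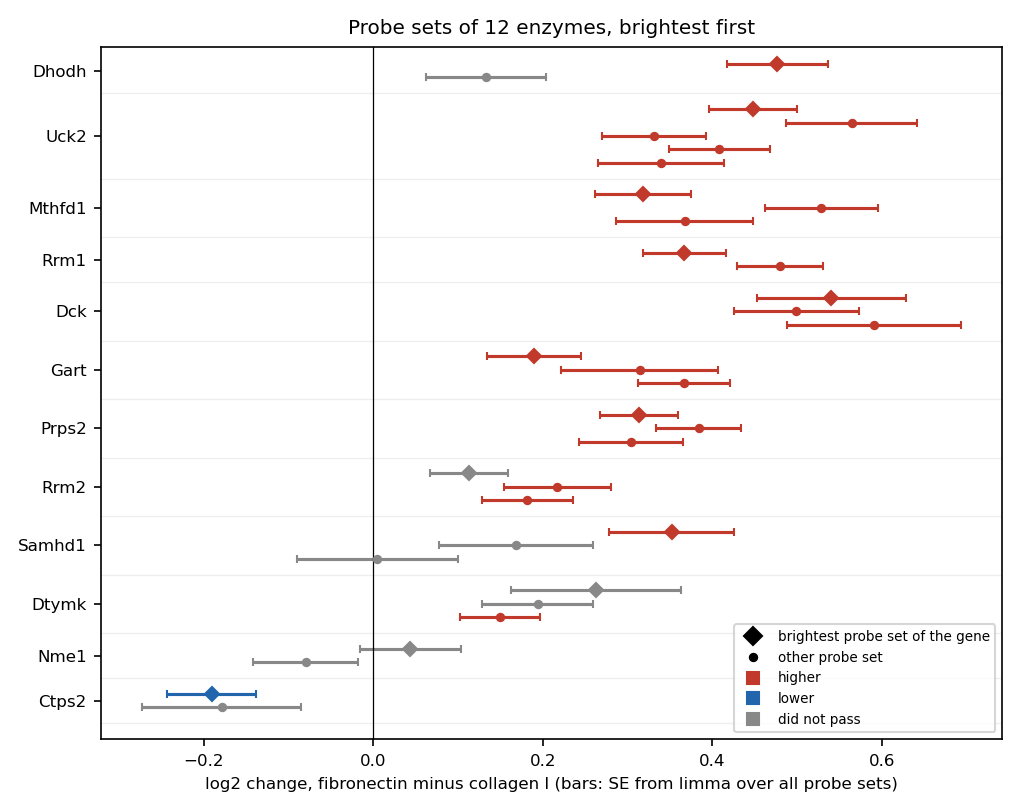
Log2 change, fibronectin minus collagen I (x axis), of every probe set above the filter for 12 enzymes, ordered from the brightest down within a gene, with the SE from limma over all probe sets as bars (n = 3 samples per coating). Diamonds are the probe sets that represent the gene; Dhodh shows 0.48 and 0.13, Rrm2 0.11, 0.22 and 0.18, and Samhd1 0.35, 0.17 and 0.00.

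The calls varied with the brightness of the probe set. Of the 5 enzymes with a mean log2 signal of 10 or more, namely Paics, Rrm2, Aprt, Nme1 and Nme2, 0 passed, and their median log2 change was 0.04. Of the 9 with means from 8 to 10, 8 passed, and of the 14 with means from 6 to 8, 13 passed, with medians of 0.26 and 0.26. Of the 4 with means from 4 to 6, 2 passed, with a median of 0.29. Over all genes tested 29% were called at means of 10 or more and 41.9% from 8 to 10, and the median size of a log2 change was 0.08 and 0.12. From 6 to 8 and from 4 to 6 the shares were 43.1% and 42.8%, and the sizes 0.13 and 0.15. The part of signal brightness in the changes of these 5 enzymes was not tested.

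**Figure D4:**
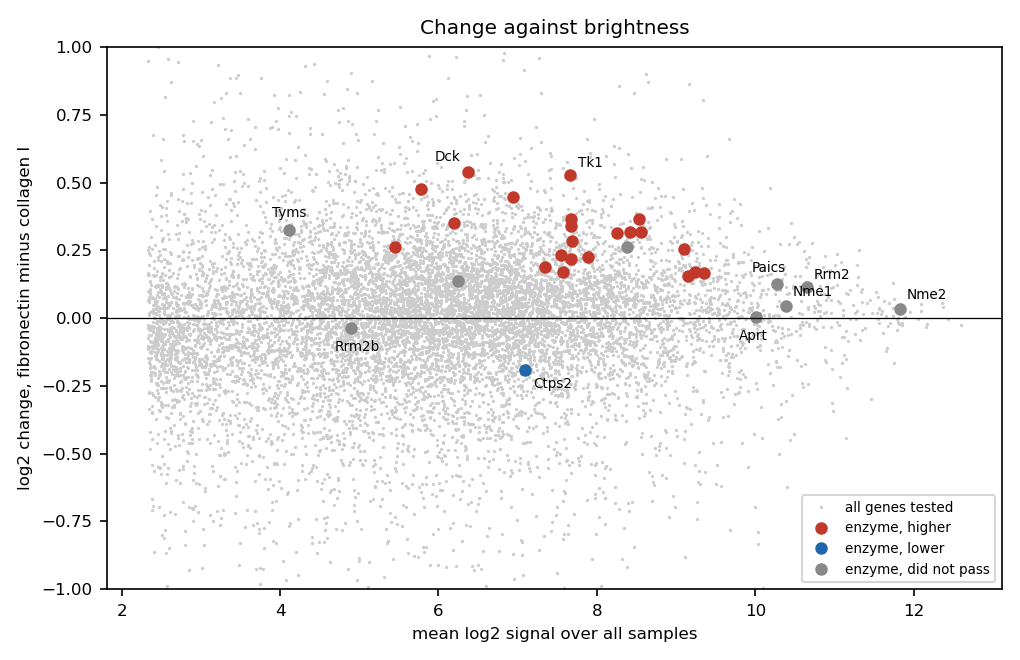
Log2 change, fibronectin minus collagen I (y axis), against the mean log2 signal over all 6 samples (x axis) for all genes tested (grey dots) and the 32 enzymes (large points, red higher, blue lower, dark grey did not pass). The 5 enzymes with means of 10 or more lie between 0.00 and 0.13; 146 genes with changes beyond 1 in either direction lie outside the y axis.

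Genes that feed or drain the same pools, taken from lists of 70 further genes of which 49 were tested, did not all follow. In total 20 rose and 9 fell, or 59.2% called against 40.1% of all genes tested. The folate and carbon supply genes were higher in 8 of 9 cases and lower in 0, with a median log2 change of 0.34. Mthfd2, a mitochondrial folate enzyme, rose 1.54-fold from 7.96 ± 0.11 to 8.59 ± 0.14 (adjusted p = 0.000824), Mthfd1l, which releases formate from mitochondria, rose 1.31-fold (adjusted p = 0.000597), and Mthfd2l rose 1.27-fold (adjusted p = 0.00204).

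Among 14 further nucleoside and nucleotide kinases 4 rose, 1 fell and 9 did not pass, so that 35.7% were called against 40.1% of all genes tested. Ak4, a mitochondrial adenylate kinase, rose 2.58-fold from 3.65 ± 0.07 to 5.02 ± 0.11 (adjusted p = 1.59e-05), by brightest probe sets the largest rise of the 49. That probe set is of the _s_at type. The call held in all 15 alternative settings with Ak4, but the log2 change ranged from 0.65 to 1.42. Adk, adenosine kinase, rose 1.28-fold, and Uckl1, which resembles uridine kinases, fell by 0.41 on the log2 scale (SE 0.05, adjusted p = 0.000573), against the rise of 0.45 in Uck2. The mitochondrial kinases Dguok and Tk2 lay at -0.01 and 0.07 and missed the threshold, whereas their cytosolic counterparts Dck and Tk1 rose as given above. Dguok and Tk2 were named after their values were seen, and these differences were not tested.

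The adenylosuccinate synthetases stood apart. Adssl1, the muscle isozyme, went from 6.13, 6.16 and 6.15 on collagen to 4.89, 4.92 and 4.84 on fibronectin, a fall of 2.4-fold (SE 0.04 on the log2 scale, adjusted p = 8.81e-06), while the widely expressed Adss had 0.15. Adssl1 fell alongside the markers of differentiating myocytes, whose values are given above, and their part in it was not tested. Prpsap1 and Prpsap2, which bind the PRPP synthetases, lay at -0.04 and 0.03 and missed the threshold, with 0.01 for Prpsap1 when samples were centred.

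Of 10 enzymes of breakdown and interconversion tested 5 fell, 3 rose and 2 did not pass, with a median log2 change of -0.26. That is 80% called, against 40.1% of all genes tested. Xdh, which oxidises purine bases to uric acid, fell from 4.43 ± 0.08 to 3.23 ± 0.12, or 2.3-fold (adjusted p = 2.85e-05). Dpyd, which starts the breakdown of uracil and thymine, fell 2.39-fold from 4.18 ± 0.18 to 2.92 ± 0.13 (adjusted p = 0.000101), and Cda, cytidine deaminase, fell 1.65-fold. The Dpyd probe set is of the _s_at type. Its call held in the 13 of 16 alternative settings in which Dpyd was tested. Gda and Ampd3, which deaminate guanine and AMP, had log2 changes of -0.79 and -0.51. The risers were Ada, adenosine deaminase, at 0.55, Dctd, which makes dUMP from dCMP, at 0.23, and Upp1, a uridine phosphorylase, at 0.15. These last 5 were named after their values were seen, and Upp1 lost its call in 6 settings, 4 of which left out a single sample: 0.15 without collagen replicate 2, 0.16 without collagen replicate 3, 0.13 without fibronectin replicate 1 and 0.15 without fibronectin replicate 2. Gda on fibronectin lay at 2.41, close to the filter of 2.33. Markers of macrophages had mean signals over 7 genes of 2.18 to 2.36 on collagen and 1.95 to 2.07 on fibronectin. Of the 7 markers 4 lay below the filter, Ptprc at no more than 0.75 and Adgre1 at no more than 1.39 in any sample. Of the 3 above it Cd68 and Cd14 fell as given above. Csf1r had a log2 change of -0.03 and did not pass (adjusted p = 0.821). The part of macrophages in the falls of these enzymes was not tested.

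Nucleotidases and enzymes that sanitise the pool had 4 of 9 genes higher and 1 lower, or 55.6% called against 40.1% of all genes tested. Dnph1, which hydrolyses deoxynucleoside monophosphates, rose by 0.38 on the log2 scale from 6.00 ± 0.05 to 6.39 ± 0.04 (adjusted p = 0.000623). Nt5c2, which dephosphorylates purine nucleotides, rose by 0.35 but had 0.11 with probe sets averaged and then did not pass (adjusted p = 0.419). Nt5m, the mitochondrial deoxynucleotidase, had -0.23 (adjusted p = 0.0163) and did not pass without fibronectin replicate 3 (-0.20) or without the filter (adjusted p = 0.0508). The nucleoside transporters Slc29a3 and Slc29a2 had log2 changes of -0.17 and 0.16 with adjusted p = 0.0256 and 0.0376. Their calls were fragile. Without collagen replicate 2, collagen replicate 3, fibronectin replicate 2 or fibronectin replicate 3 in turn neither passed, with Slc29a3 between -0.18 and -0.14 and Slc29a2 between 0.13 and 0.17, and Slc29a2 did not pass without fibronectin replicate 1 either (0.19). Slc29a3 also missed with probe sets averaged (-0.02).

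**Figure D5:**
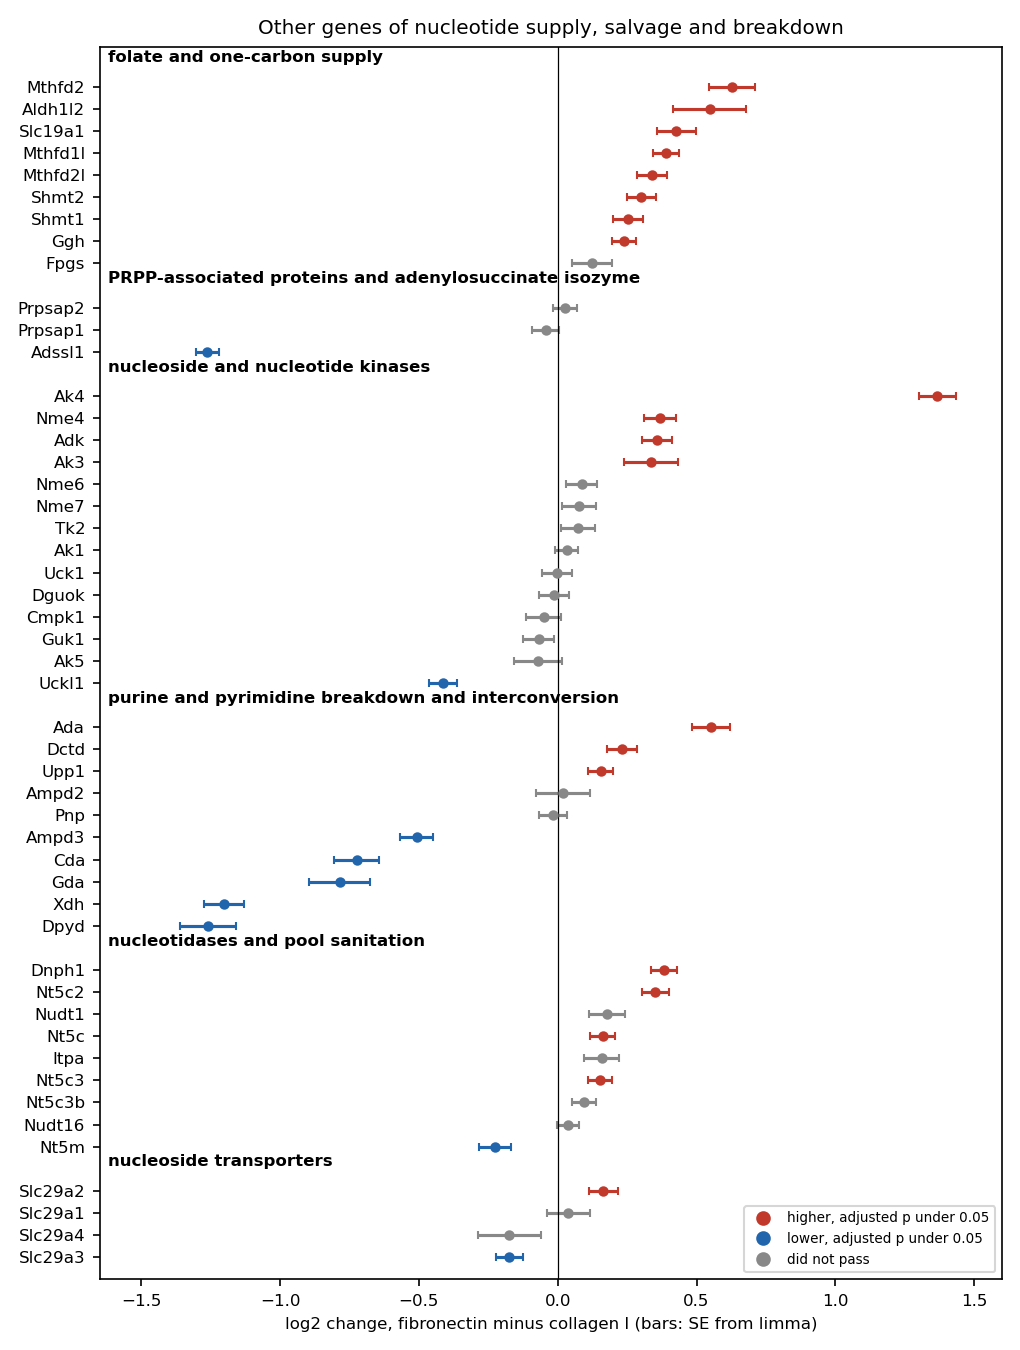
Log2 change, fibronectin minus collagen I (x axis, points, with the SE from limma as bars, n = 3 samples per coating), of the 49 further genes tested, in rows grouped by function. Red rose, blue fell and grey did not pass an adjusted p of 0.05; 8 of 9 folate genes rose, while Xdh, Dpyd, Gda, Cda and Ampd3 fell by 0.51 to 1.26.

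Among 14 transcription factors and their partners known to act on such enzymes 5 rose and 1 fell, or 42.9% called, near the 40.1% of all genes tested. Myc, which activates many nucleotide genes, rose 1.24-fold from 7.04 ± 0.02 to 7.36 ± 0.05 (adjusted p = 0.00122), Rb1, which restrains E2F factors, rose 1.25-fold (adjusted p = 0.000887), and Atf4, which drives amino acid and folate genes, rose 1.31-fold (adjusted p = 0.00127). Atf4 had 0.16 with probe sets averaged and did not pass (adjusted p = 0.129). Among the activating E2F factors, named after their values were seen, E2f2 rose by 0.25 on the log2 scale, while E2f1 and E2f3 lay at 0.02 and 0.03 and did not pass.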

How the data were processed

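RNA of 6 samples was measured on Affymetrix expression arrays. The authors deposited log2 probe set signals, which per the submitters' processing notes were made with Affymetrix Expression Console and RMA (background correction, quantile normalisation and summary on the log2 scale). The sources used here give no version, setting or scan date, and no batch was tested. Quantile normalisation removes a change shared by most genes.

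Groups came from the sample titles. Of 45101 probe sets 34945 had 1 gene symbol, 932 had several and were not named, 9160 had none and 64 were controls. Symbols came from the platform's annotation, updated through RefSeq GRCm38.p6, in which 18032 of 18194 genes were found. A gene was represented by its brightest probe set and tested if the mean reached 2.33, the median over probe sets. limma 3.58.1 in R 4.3.3 (lmFit, eBayes, two-sided, no covariates) was run over 10941 genes with Benjamini-Hochberg adjustment and a threshold of 0.05, and paralogues were compared with exact permutation tests. On simulated data for this comparison with 10941 genes, 50 genes were changed at each size. The fit recovered 78% of changes of 1.25-fold and 100% of larger ones (1.5, 2 and 3-fold), with 12 false calls among 201. Far fewer genes were changed there than the 4384 called in the data, so recovery in the data may differ.

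The enzymes, gene lists and tests were chosen with earlier results of these data known. Sample values were given for up to 4 enzymes of each role by smallest p and for paralogues, and up to 3 genes of each further list were named. A planned comparison of Impdh1 with Impdh2 could not be made without a probe set named Impdh2. Alternatives comprised other filters, scalings, probe set choices, variance models, thresholds, a replicate block and leaving out each sample. The NRF1 core motif was also searched in the start windows and is not reported here. Figures used Python 3.11.15 and matplotlib 3.10.9.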

Additional observations from a re-analysis of the deposited data

How the results depend on the processing

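Of the 23 enzymes that passed, 14 passed in all 16 refits over alternative settings and 9 missed the threshold in at least 1, while 0 changed direction; of the 9 that did not pass, 5 passed in at least 1. With 1 sample left out in turn, 16 to 24 enzymes were higher, 0 to 1 lower, 23 to 30 further pathway genes and 3431 to 4137 of all genes passed, and the median change of the enzymes lay between 0.21 and 0.26. The enzyme called lower, Ctps2, was the only one, and the count became 0 without the filter, with samples centred, with probe sets averaged, and at an adjusted p of 0.01. The median change moved to 0.30 with samples centred, a setting in which 64.4% of all calls were higher in place of 49.6%. At an adjusted p of 0.01 there were 2569 genes, and 16 enzymes were higher. Requiring 1.5-fold left 572 genes, 7 further pathway genes and 0 enzymes in either direction, and testing every probe set called 7196. Small differences changed sign: Nme1 minus Nme2 had -0.0512 with probe sets averaged and -0.0167 to 0.0554 with 1 sample left out, Nme1 -0.018 with probe sets averaged, Rrm2b 0.0162 with samples centred and -0.11 to 0.0136 with 1 sample left out, Prpsap1 0.0101 with samples centred, and Aprt -0.0285 to 0.0419 with 1 sample left out. The replicate numbers are not known to pair samples: deviations of same-numbered samples correlated at 0.101, -0.009 and 0.078. With the replicate block 22 enzymes were higher and 1 lower, 4178 genes passed, Atic (adjusted p = 0.0547) and Gmps (0.06) did not pass, and Tyms and Dtymk did. Dim probe sets limited Tyms and Rrm2b, which fell below the filter with probe sets averaged.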
